A study of Homo sapiens with 4 samples.

Results

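The CD30 axis, a set of related tumour necrosis factor (TNF) superfamily genes and the transcription factor genes IRF4 and BATF3 were followed in NK-92, an established line of human natural killer (NK) cells whose growth depends on interleukin 2 (IL-2). The 10 genes were picked on their measured difference between the lines: TNFRSF8 and IRF4 were known to be higher, and TNFSF8 lower, in the edited line. All 10 were found among the 61860 gene identifiers counted, and 9 passed the filter on low counts that left 17492 genes. The exception was TNFRSF18. Because the line difference chose the genes, their line values are given as a description with no test. The test was kept for the IL-2 times, which the rule of choice did not name.

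The edited line, ΔOGT-ISS, lacks an intronic splicing silencer of OGT after CRISPR-Cas9 editing, and the line set beside it is labelled wild type (WT). OGT is the enzyme that puts O-GlcNAc on proteins inside the cell. Cells were grown in alpha-MEM based medium, and 2 libraries of total RNA were made from each line, the first 24 h after IL-2 and the other 48 h after it. All 4 libraries received IL-2 by their sample labels, although the library titles name IL-2 at 24 h alone. A single edited line was compared, the labels do not say that it is 1 clone or that the libraries came from separate cultures, and the edit cannot be told apart from other differences between the lines.

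TNF receptors are surface proteins that bind trimeric ligands of the TNF family on neighbouring cells. One branch, to which CD30, OX40, 4-1BB and GITR belong, recruits TRAF adaptors and feeds NF-κB, while FAS and the signalling TRAIL receptors carry death domains that lead to caspase activation. CD30 is an activation antigen of lymphocytes best known from Hodgkin and anaplastic large cell lymphoma, where IRF4 and BATF3 are also prominent. IRF4 binds DNA poorly alone and pairs with AP-1 dimers that contain a BATF protein. NK cells use FASLG and TRAIL to kill target cells, and 4-1BB and OX40 are inducible on activated lymphocytes.

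Promoters are shown for TNFRSF8 and IRF4, which were higher in ΔOGT-ISS at both times. They are also shown for TNFRSF9 and TNFSF10, whose line ratios at 24 h and 48 h had counting intervals that do not overlap. FAS and FASLG had such intervals too, and their windows are not shown. Each run goes from 250 bases before to 50 bases after the start given by RefSeq (GRCh38.p14), 5′ to 3′ on the gene's own strand. Capitals mark letters that match a searched motif on either strand. Of the 10 genes, 7 matched the RefSeq promoter table, and TNFSF8, TNFRSF4 and BATF3 have no entry there.
TNFRSF8 (chr1:12063053-12063352, plus strand): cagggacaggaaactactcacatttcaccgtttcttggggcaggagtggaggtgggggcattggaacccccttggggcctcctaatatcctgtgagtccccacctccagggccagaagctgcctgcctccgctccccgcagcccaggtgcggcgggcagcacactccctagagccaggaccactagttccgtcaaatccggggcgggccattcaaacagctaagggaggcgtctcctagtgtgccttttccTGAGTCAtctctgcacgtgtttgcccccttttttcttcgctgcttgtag
IRF4 (chr6:391502-391801, plus strand): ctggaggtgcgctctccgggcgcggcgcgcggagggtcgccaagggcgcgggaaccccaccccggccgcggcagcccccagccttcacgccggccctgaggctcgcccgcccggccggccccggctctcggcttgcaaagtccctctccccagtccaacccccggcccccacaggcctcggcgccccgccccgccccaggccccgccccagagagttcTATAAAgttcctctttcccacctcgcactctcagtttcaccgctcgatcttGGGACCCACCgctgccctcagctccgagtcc
TNFRSF9 (chr1:7940790-7941089, minus strand): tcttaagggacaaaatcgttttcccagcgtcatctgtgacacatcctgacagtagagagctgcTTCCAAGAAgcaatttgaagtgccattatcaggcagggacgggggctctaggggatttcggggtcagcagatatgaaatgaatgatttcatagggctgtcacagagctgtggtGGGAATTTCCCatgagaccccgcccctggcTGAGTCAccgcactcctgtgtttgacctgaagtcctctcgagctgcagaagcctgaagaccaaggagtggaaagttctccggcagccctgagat
TNFSF10 (chr3:172523381-172523680, minus strand): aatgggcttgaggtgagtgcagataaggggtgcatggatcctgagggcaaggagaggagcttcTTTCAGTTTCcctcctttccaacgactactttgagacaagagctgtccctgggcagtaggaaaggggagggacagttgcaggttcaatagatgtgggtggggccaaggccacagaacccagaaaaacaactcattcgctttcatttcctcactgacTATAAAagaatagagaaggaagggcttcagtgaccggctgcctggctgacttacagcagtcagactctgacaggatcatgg

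The 7 motifs searched were AP-1 (TGANTCA), an interferon-stimulated response element (GAAA on each side of 2 free bases), a spaced composite of IRF and AP-1 sites (TTTC, 4 free bases and TGANTCA, which contains the AP-1 letters), NF-κB (GGGA and CC around 4 free bases), STAT (TTCNNNGAA), an ETS core (CCGGAAG) and the TATA box (TATAAA). The TNFRSF8 window held AP-1 letters at bases 2 to 8 after the start and no other searched motif. The IRF4 window held a TATA box at bases -32 to -27 and NF-κB letters at 20 to 29. The TNFRSF9 window held AP-1 letters at -44 to -38, STAT letters at -187 to -179 and 2 overlapping NF-κB matches, at -74 to -65 and -73 to -64. The TNFSF10 window held interferon response element letters at -187 to -178 and a TATA box at -31 to -26. Of 35116 promoters of this length, 7.71% held AP-1, 25.6% NF-κB, 7.66% STAT, 3.57% the interferon element and 11.5% the TATA letters, and 0.114% held the composite and 10.3% the ETS core. A match describes letters and is not shown to be a bound site.

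Depth was 28576566 counts in ΔOGT-ISS and 24809269 in WT at 24 h, and 11305599 in ΔOGT-ISS and 10889986 in WT at 48 h, so values at 48 h rest on fewer reads. TMM-normalized counts scaled to library size (CPM) are used as levels below. The level of OGT itself was 384 for ΔOGT-ISS cells and 449 for WT cells at 24 h, and 399 and 446 for those lines at 48 h. Gene counts do not separate spliced from unspliced OGT, so they do not check the edit. All 12 NK markers listed reached at least 1 CPM in every library, with summed levels of 2782 to 4863 CPM. Of 11 T cell markers 5 to 7 did, led by CD3E, CD28 and the receptor constant genes, while CD3D, CD4, CD8A, CD8B and CD5 had at most 14 counts each. CD3G had 49 counts in ΔOGT-ISS and 1 in WT at 24 h, and 6 and 0 in those lines at 48 h. B cell markers came almost wholly from PAX5, with MS4A1 at 0 to 3 counts, and red cell markers were under 1 CPM in sum. Myeloid markers summed to 47.5 CPM in ΔOGT-ISS and 315 in WT at 24 h, and to 612 and 827 CPM in those lines at 48 h. S100A9 made up most of that, with CD14 and LYZ at 0 to 5 counts. CSF1R (3.52 to 9.46 CPM) and ITGAM (4.04 to 8.61 CPM) had reads in every library. The myeloid sum was lowest in ΔOGT-ISS at 24 h, the library where TNFSF8, FAS, TNFRSF9, TNFSF10 and BATF3 were lowest. For TNFSF10 and BATF3 the counting interval of the line ratio at 24 h reached past 1. TNFRSF8 (43.8 CPM) and IRF4 (165 CPM) were highest in that library. Of the NK markers, GZMB (327 CPM) and GNLY (49.0 CPM) were also lowest there, while NCAM1 and TBX21 were highest there. The part of these markers in the results was not tested.

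**Figure D1:**
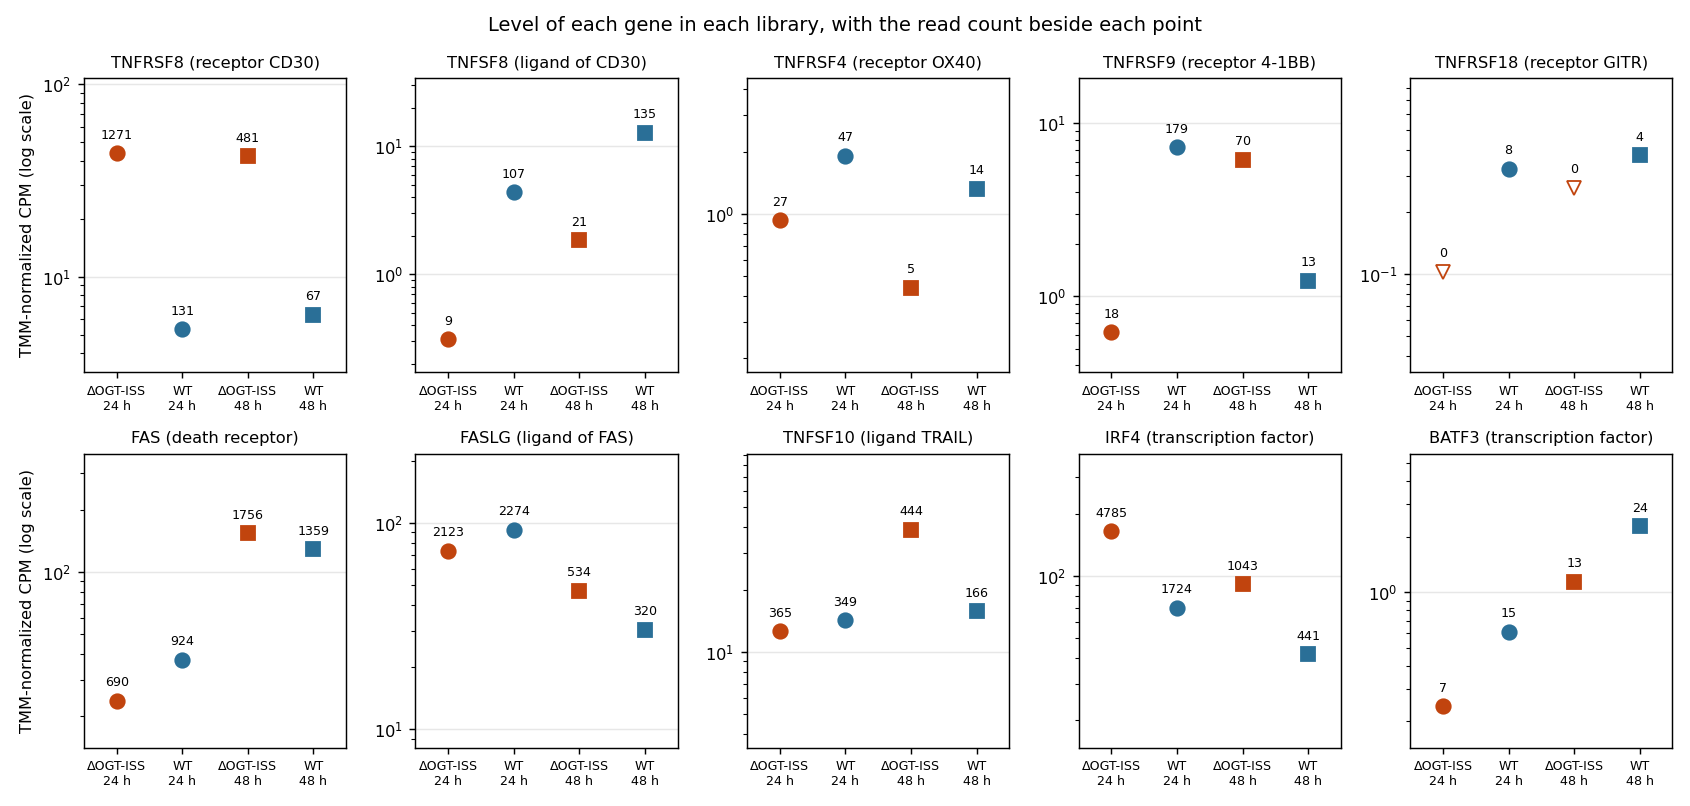
TMM-normalized CPM (log scale) of each of the 10 genes in each library, ΔOGT-ISS in red-orange and WT in blue, circles at 24 h and squares at 48 h of IL-2, with the read count beside each point; each point is 1 library, and open triangles mark a count of 0 at the level of 3 counts. TNFRSF8 and IRF4 were higher in ΔOGT-ISS at both times, TNFSF8 was lower, and TNFRSF9 was high in WT at 24 h and in ΔOGT-ISS at 48 h.

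TNFRSF8 (ENSG00000120949, chromosome 1, 12063377 to 12144207 on GRCh38, plus strand), which encodes the receptor CD30, was read 1271 times in ΔOGT-ISS and 131 times in WT at 24 h. At 48 h it was read 481 times in ΔOGT-ISS and 67 times in WT. Levels were 43.8 CPM for ΔOGT-ISS against 5.32 for WT at 24 h, and 42.2 CPM for ΔOGT-ISS against 6.34 for WT at 48 h. Both ΔOGT-ISS libraries lay well above both WT libraries, and within a line the libraries of different IL-2 time were nearly level. The ratio at 24 h was 8.24 (95% counting interval 6.88 to 9.94), and at 48 h it was 6.65 (5.14 to 8.72), intervals that overlap. The fitted log2 difference over both times was 2.90 (SE 0.22), or 7.44-fold. These intervals, and all others here, cover counting error only.

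TNFSF8 (ENSG00000106952, chromosome 9, 114893343 to 114930595, minus strand), which encodes the CD30 ligand, ran the other way. It was read 9 times in ΔOGT-ISS and 107 times in WT at 24 h, and 21 times in ΔOGT-ISS and 135 times in WT at 48 h. That is 0.310 CPM for ΔOGT-ISS against 4.35 for WT at 24 h and 1.84 CPM for ΔOGT-ISS against 12.8 for WT at 48 h, so both ΔOGT-ISS libraries lay below both WT libraries. The ratio at 24 h was 0.0714 (0.0318 to 0.141), and at 48 h it was 0.144 (0.0864 to 0.229). The fitted log2 difference was -3.24 (SE 0.48). The pair was chosen for this contrast, so the ratio of receptor over ligand restates it and is given as a description. In the deposited FPKM values (reads scaled to transcript length and library total), receptor over ligand was 142 in ΔOGT-ISS and 1.23 in WT at 24 h, and 23.0 in ΔOGT-ISS and 0.499 in WT at 48 h. In WT at 48 h the ligand gene was thus the higher of the pair. The receptor gene was higher in both ΔOGT-ISS libraries and, by little, in WT at 24 h. The value of 142 rests on 9 ligand reads.

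Among the other TRAF-binding receptors, TNFRSF9 (ENSG00000049249), which encodes 4-1BB, had a line difference of opposite direction at the 2 times. It was read 18 times in ΔOGT-ISS and 179 times in WT at 24 h, but 70 times in ΔOGT-ISS and 13 times in WT at 48 h. The levels were 0.621 CPM for ΔOGT-ISS against 7.27 for WT at 24 h and 6.13 CPM for ΔOGT-ISS against 1.23 for WT at 48 h. High libraries were WT at 24 h and ΔOGT-ISS at 48 h, and the lines overlapped. The ratio at 24 h was 0.0854 (0.0495 to 0.139), and at 48 h it was 4.99 (2.74 to 9.83). The fitted log2 value of -0.72 had an SE of 1.39 and describes neither time.

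TNFRSF4 (ENSG00000186827) and TNFRSF18 (ENSG00000186891), which encode OX40 and GITR, neighbour each other at the end of chromosome 1, at 1211326 to 1214138 and 1203508 to 1206691. Both were barely expressed. TNFRSF4 was read 27 times in ΔOGT-ISS and 47 times in WT at 24 h, and 5 and 14 times in those lines at 48 h, which gave ratios of 0.488 (0.292 to 0.799) and 0.331 (0.0933 to 0.972), ΔOGT-ISS over WT, at 24 h and 48 h. ΔOGT-ISS was the lower line at both times, with a fitted log2 difference of -1.26 (SE 0.78). TNFRSF18 had 0 reads in both ΔOGT-ISS libraries, against 8 reads in WT at 24 h and 4 in WT at 48 h. With 0 reads the limit is 3 counts, or 0.103 CPM for ΔOGT-ISS at 24 h and 0.263 CPM at 48 h. The interval of the ratio ran up to 0.497 at 24 h and up to 1.40 at 48 h, where a difference was not detectable at this depth.

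The death receptor gene FAS (ENSG00000026103, chromosome 10, 88990582 to 89015785, plus strand) was read 690 times in ΔOGT-ISS and 924 times in WT at 24 h, and 1756 and 1359 times in those lines at 48 h. The ratio between the lines at 24 h was 0.634 (0.574 to 0.701), and at 48 h it was 1.20 (1.11 to 1.29). Its ligand gene FASLG (ENSG00000117560, chromosome 1, 172659018 to 172666874) was read 2123 times in ΔOGT-ISS and 2274 times in WT at 24 h, and 534 and 320 times in those lines at 48 h. Its line ratios were 0.793 (0.747 to 0.841) at 24 h and 1.55 (1.34 to 1.78) at 48 h. Receptor and ligand were thus both lower in ΔOGT-ISS at 24 h and both higher at 48 h, and their lines overlapped once the times were pooled. Fitted over both times they stood near 0, at -0.19 (SE 0.23) for FAS and 0.13 (SE 0.24) for FASLG.

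TNFSF10 (ENSG00000121858, chromosome 3, 172505508 to 172523507), which encodes TRAIL and is known as an interferon-induced gene, stood out in a single library. It was read 365 times in ΔOGT-ISS and 349 times in WT at 24 h, and 444 and 166 times in those lines at 48 h. The levels of 12.6, 14.2 and 15.7 CPM in ΔOGT-ISS at 24 h, WT at 24 h and WT at 48 h lay close together, and ΔOGT-ISS at 48 h reached 38.9 CPM. The line ratio at 24 h was 0.888 (0.765 to 1.03), and at 48 h it was 2.48 (2.07 to 2.98).

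IRF4 (ENSG00000137265, chromosome 6, 391739 to 411447, plus strand) was read 4785 times in ΔOGT-ISS and 1724 times in WT at 24 h, and 1043 and 441 times in those lines at 48 h. These are 165 CPM for ΔOGT-ISS against 70.0 for WT at 24 h and 91.4 CPM for ΔOGT-ISS against 41.7 for WT at 48 h. Each ΔOGT-ISS library exceeded each WT library. The ratio at 24 h was 2.36 (2.23 to 2.49), and at 48 h it was 2.19 (1.96 to 2.45), and the fitted log2 difference was 1.19 (SE 0.16). BATF3 (ENSG00000123685, chromosome 1, 212686418 to 212699985), the other transcription factor gene, was at the edge of detection. It was read 7 times in ΔOGT-ISS and 15 times in WT at 24 h, and 13 and 24 times in those lines at 48 h. Its line ratio was 0.396 at 24 h (0.137 to 1.03) and 0.502 at 48 h (0.235 to 1.03), and both had intervals that reach past 1, so a line difference was not detectable at this depth.

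**Figure D2:**
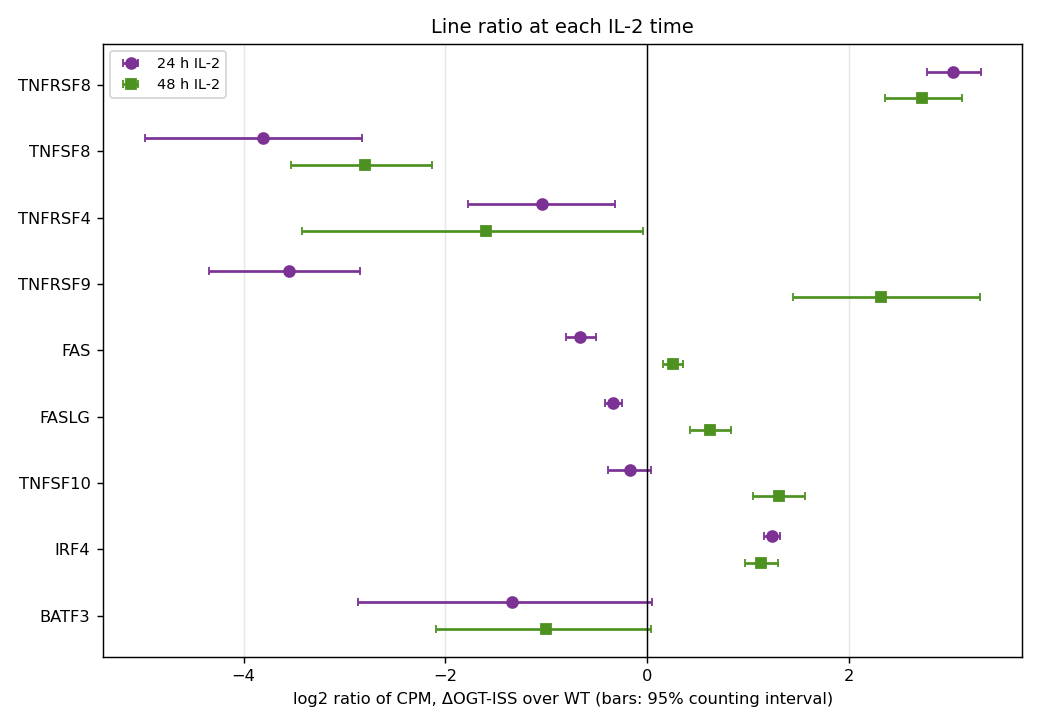
Log2 ratio of CPM, ΔOGT-ISS over WT, of the 9 genes with reads in every library, with 95% counting intervals, at 24 h (circles) and 48 h (squares) of IL-2; each point compares 1 library per line. The whole interval lay above 0 at both times for TNFRSF8 and IRF4 and below 0 at both for TNFSF8 and TNFRSF4, and changed side for TNFRSF9, FAS and FASLG. At least 1 interval reached 0 for TNFSF10 and BATF3.

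Counted together, 2 of the 9 genes that passed the filter had intervals above 1 at both times, 2 had intervals below 1 at both, and 3 had intervals on opposite sides. Over all 17492 genes these patterns took 9.38%, 10.3% and 9.51%. By the edgeR test between the lines, 0.463% of all genes were called, 0.149% as higher and 0.314% as lower in ΔOGT-ISS. Since this contrast chose the genes, nothing is read from their counts here. The 3 genes on which the choice rested stood at log2 2.90, 1.19 and -3.24, and the other 6 ran between -1.26 (TNFRSF4, SE 0.78) and 0.56 (TNFSF10, SE 0.34).

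Per length, the order of levels shifted with both line and time. FASLG, FAS, IRF4 and TNFSF10 held the upper places in both WT libraries, between 7.50 and 50.8 FPKM. In ΔOGT-ISS TNFRSF8 joined them, with 11.8 FPKM at 24 h and 11.3 FPKM at 48 h, against 1.41 and 1.64 FPKM in WT. At 24 h it ranked above TNFSF10 (6.81 FPKM) and FAS (6.54 FPKM) in ΔOGT-ISS, and those 2 neighbours in the order were close to level. TNFRSF4, TNFRSF9, TNFSF8, BATF3 and TNFRSF18 lay at or under 3.28 FPKM in every library.

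The IL-2 times were not named in the rule of choice, so the test was made on them. The genes were still chosen with earlier results of these data known, so the test is not fully independent of the choice. Of the 9 genes, FASLG and IRF4 rose at 24 h relative to 48 h, and FAS and TNFSF8 fell (edgeR adjusted p under 0.05 over all genes). Of all genes tested, 25.9% were called, 15.0% as higher and 10.9% as lower, so 4 of 9 is read against that background. The median log2 change was -0.39 over the 9 and 0.07 over all genes. Depth also differed between the times and cannot be told apart from the IL-2 interval. In bulk RNA, fewer cells of a type and less RNA per cell cannot be told apart either.

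FAS fell the most. Its level was 23.8 CPM for ΔOGT-ISS cells and 37.5 for WT cells at 24 h, against 154 and 129 CPM in those lines at 48 h. Neither line's 24 h library came near its 48 h library. The ratio of 24 h over 48 h was 0.155 (0.141 to 0.169) in ΔOGT-ISS and 0.292 (0.268 to 0.318) in WT, and the fit gave log2 -2.23 with SE 0.24 (edgeR adjusted p = 9.86e-04). FASLG moved in the opposite direction, with 73.2 CPM for ΔOGT-ISS cells and 92.4 for WT cells at 24 h, against 46.8 and 30.3 CPM in those lines at 48 h. It rose by 1.56-fold (1.42 to 1.72) in ΔOGT-ISS and 3.05-fold (2.71 to 3.44) in WT, or log2 1.12 (SE 0.24, edgeR adjusted p = 0.0127). Without the WT 24 h library, in a fit that also lacked the line term, FASLG no longer passed (log2 1.00, edgeR adjusted p = 0.112). FPKM of the receptor over the ligand was 0.159 in ΔOGT-ISS and 0.198 in WT at 24 h, against 1.61 and 2.07 in those lines at 48 h. The order of the pair thus turned over between the times in both lines.

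IRF4 rose by a similar factor in each line, 1.81-fold (1.69 to 1.93) in ΔOGT-ISS and 1.68-fold (1.51 to 1.87) in WT, and the fit gave log2 0.80 with SE 0.16 (edgeR adjusted p = 0.00914). TNFSF8 fell in both, with ratios of 0.169 (0.0680 to 0.384) in ΔOGT-ISS and 0.340 (0.262 to 0.442) in WT, and a log2 change of -1.93 (SE 0.46, edgeR adjusted p = 0.0187). Without the line term neither passed, with values of similar size and a larger SE. IRF4 then stood at 0.82 (SE 0.51, edgeR adjusted p = 0.304) and TNFSF8 at -1.65 (SE 1.30, edgeR adjusted p = 0.412). Leaving out 1 library as well gave edgeR adjusted p from 0.0759 to 0.886 for IRF4 and from 0.0683 to 0.844 for TNFSF8, whose value was 0.41 without the WT 48 h library. Those fits mix line with time. With limma on FPKM, TNFSF8 did not pass at a pseudocount of 1 or 0.1 (limma adjusted p = 0.0759 and 0.0808).

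The remaining genes did not pass. TNFRSF8 was nearly level between the times, with ratios of 1.04 (0.936 to 1.16) in ΔOGT-ISS and 0.839 (0.621 to 1.14) in WT and a log2 value of -0.08 (SE 0.21, edgeR adjusted p = 0.819). With offsets for GC content and transcript length it stood at -1.0 and passed (edgeR adjusted p = 0.00321), so its level between the times depends on that setting. TNFSF10 had a ratio of 0.324 (0.281 to 0.372) in ΔOGT-ISS and 0.903 (0.748 to 1.09) in WT (log2 -0.91, SE 0.34, edgeR adjusted p = 0.0903). BATF3 stood at -2.04 (SE 0.89, edgeR adjusted p = 0.132) and TNFRSF4 at 0.77 (SE 0.78, edgeR adjusted p = 0.512). TNFRSF9 had a ratio of 0.101 (0.0567 to 0.172) in ΔOGT-ISS and 5.91 (3.37 to 11.3) in WT, and the fitted value of -0.39 (SE 1.38, edgeR adjusted p = 0.865) averages over these. TNFRSF18 had no reads in ΔOGT-ISS and 8 and 4 reads in WT at 24 h and 48 h.

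**Figure D3:**
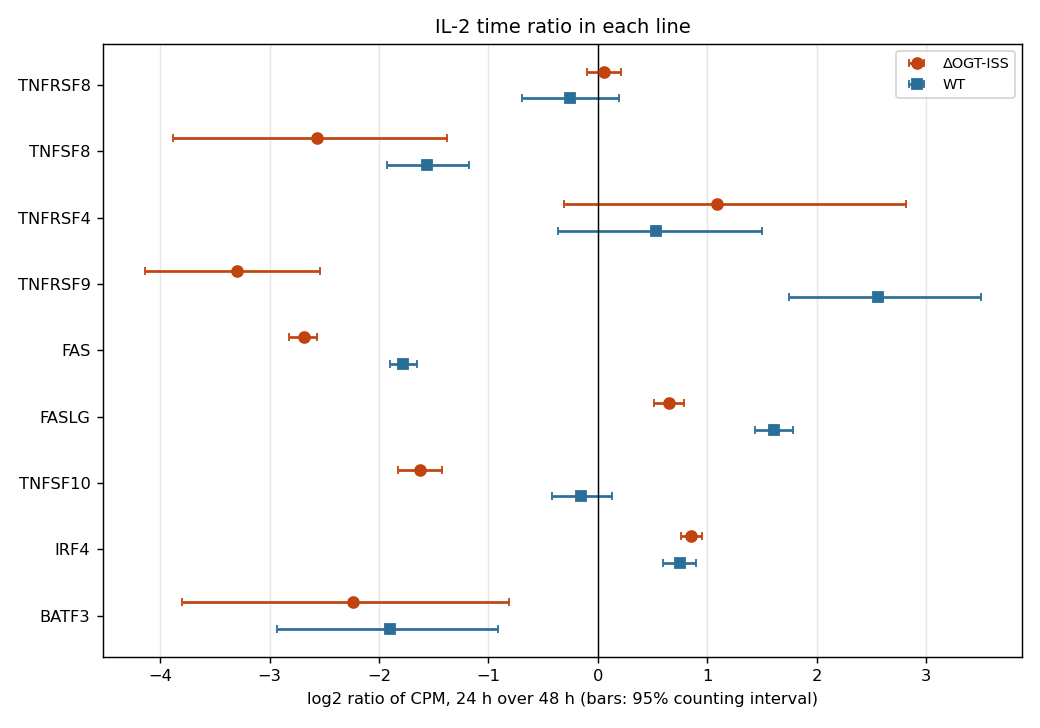
Log2 ratio of CPM, 24 h over 48 h of IL-2, of the 9 genes with reads in every library, with 95% counting intervals, in ΔOGT-ISS (circles) and WT (squares); each point compares 1 library per time. The whole interval lay below 0 in both lines for FAS, TNFSF8 and BATF3, above 0 in both for FASLG and IRF4, and on opposite sides for TNFRSF9.

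With counting intervals alone, 2 of the 9 genes lay above 1 in both lines, 3 below 1 in both and 1 on opposite sides. Over all genes tested these shares were 26.3%, 23.5% and 4.71%. The 3 genes below 1 in both lines were FAS, TNFSF8 and BATF3, and the gene on opposite sides was TNFRSF9.

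Other TNF superfamily genes were read from lists of receptors and ligands. Of 24 other receptor genes 11 were tested, and 0 passed the edgeR test (median log2 0.08, against 0.02 over all genes). Among those of at least 5 mean CPM the largest values were in TNFRSF13C, the BAFF receptor, at 0.83 (SE 0.40, edgeR adjusted p = 0.627) and TNFRSF10A, a TRAIL receptor, at 0.25 (SE 0.38, edgeR adjusted p = 0.944). Of 15 other ligand genes 8 were tested, again with 0 past the test (median -0.58). All 8 had negative values, among them TNF at -0.81 (SE 0.19, edgeR adjusted p = 0.165) and TNFSF14, which encodes LIGHT, at -0.71 (SE 0.17, edgeR adjusted p = 0.156). Some were small against their SE, such as CD70 at -0.15 (SE 0.78) and CD40LG at -0.41 (SE 0.60). For LTA and LTB the line ratios were 0.933 and 0.961 at 24 h, against 0.538 and 0.528 at 48 h. The share of all genes with a negative value was not counted. Over the 5 lists described here, 15 of 71 tested genes had an unadjusted p under 0.05 between the lines and 1 passed after adjustment, while DESeq2 called 2. Over all genes 1589 of 17492 had an unadjusted p under 0.05 and 81 passed.

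At 24 h relative to 48 h, 5 of the 11 receptor genes rose and 0 fell (median 0.69, against 0.07 over all genes, of which 15.0% rose and 10.9% fell). They were TNFRSF10A (log2 2.75, SE 0.39, edgeR adjusted p = 0.00267), the TNF receptor genes TNFRSF1B (0.95) and TNFRSF1A (0.69), TNFRSF14 (1.25), which encodes the receptor of LIGHT, and RELT (1.00). With GC and length offsets TNFRSF10A remained at 2.64, but the other 4 stood between 0.08 and 0.18 and did not pass. Of the 8 ligand genes 5 rose and 0 fell (median 1.09). TNFSF14 rose by 2.03 log2 units (SE 0.17, edgeR adjusted p = 5.08e-04), TNF by 1.89 (SE 0.20, edgeR adjusted p = 9.86e-04), TNFSF12, which encodes TWEAK, by 1.71, and the lymphotoxin genes LTA and LTB by 1.24 and 0.95. TNFSF12 and LTB stood at 0.88 and -0.07 with the offsets and did not pass.

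Among TRAF adaptors and NF-κB genes, which act downstream of CD30, OX40 and 4-1BB, 0 of 22 passed between the lines (median -0.11). TRAF1, an adaptor gene that is itself induced by NF-κB, had levels of 52.3 CPM for ΔOGT-ISS cells and 35.7 for WT cells at 24 h, and of 55.0 and 29.7 CPM for those lines at 48 h (log2 0.72, SE 0.18, edgeR adjusted p = 0.178). MAP3K14, which encodes the kinase NIK of the non-canonical pathway, stood at 0.70 (SE 0.40, edgeR adjusted p = 0.726). At 24 h relative to 48 h, 2 of the 22 rose and 7 fell (median -0.01), so a gene that fell was lower at 24 h. Of all genes, 15.0% rose and 10.9% fell. The inhibitors of NF-κB signalling NFKBIA and TNFAIP3 fell by 2.22 and 3.30 log2 units, and BIRC3, which encodes the ubiquitin ligase cIAP2, fell by 2.93 with SE 0.17 (edgeR adjusted p = 1.61e-04). NFKB1 and NFKB2 fell by 0.97 and 0.98. BCL3, a nuclear member of the IκB family, rose by 1.23, but stood at -0.22 with the offsets.

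Death receptor signalling genes were close to level between the lines, with 0 of 11 past the test (median -0.01). CASP10, an initiator caspase gene, stood at 0.32 (SE 0.19, edgeR adjusted p = 0.735). Of the 11, 3 rose and 0 fell at 24 h relative to 48 h (median 0.10), where 15.0% of all genes rose and 10.9% fell. FADD, the adaptor that links FAS to caspases, rose by 1.94 log2 units (SE 0.27, edgeR adjusted p = 0.00235), TRADD, an adaptor of the TNF receptor, by 1.27 and DAXX by 0.65. With the offsets FADD stood at 1.30, and TRADD (0.07) and DAXX (0.23) did not pass.

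Of 19 tested genes for partners and associates of IRF4 and BATF3, IKZF1 alone passed between the lines (median 0.16). IKZF1, which encodes the lymphoid factor Ikaros, fell by 1.01 on the log2 scale (SE 0.16, edgeR adjusted p = 0.0481), and its level was 76.9 CPM for ΔOGT-ISS cells and 149 for WT cells at 24 h, and 58.4 and 123 CPM for those lines at 48 h. The 20 expressed genes around it on chromosome 7 had median log2 line ratios of -0.49 at 24 h and -0.64 at 48 h, and their part in its fall was not tested. It did not pass after thinning of the 24 h libraries (edgeR adjusted p = 0.0638) or with limma on FPKM (limma adjusted p = 0.266 and 0.262), nor without the time term or any 1 library. Between the times 2 of the 19 rose and 7 fell at 24 h relative to 48 h (median -0.40), so a gene that fell was lower at 24 h. Of all genes, 15.0% rose and 10.9% fell. The AP-1 genes JUN and FOS fell by 2.96 and 1.42, ATF3 by 4.0 (SE 0.45, edgeR adjusted p = 0.00113) and PRDM1, which encodes Blimp-1, by 0.92. IKZF3, which encodes Aiolos, rose by 0.65. JUND rose by 0.81, yet with the offsets fell by 0.87 (edgeR adjusted p = 0.00571).

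**Figure D4:**
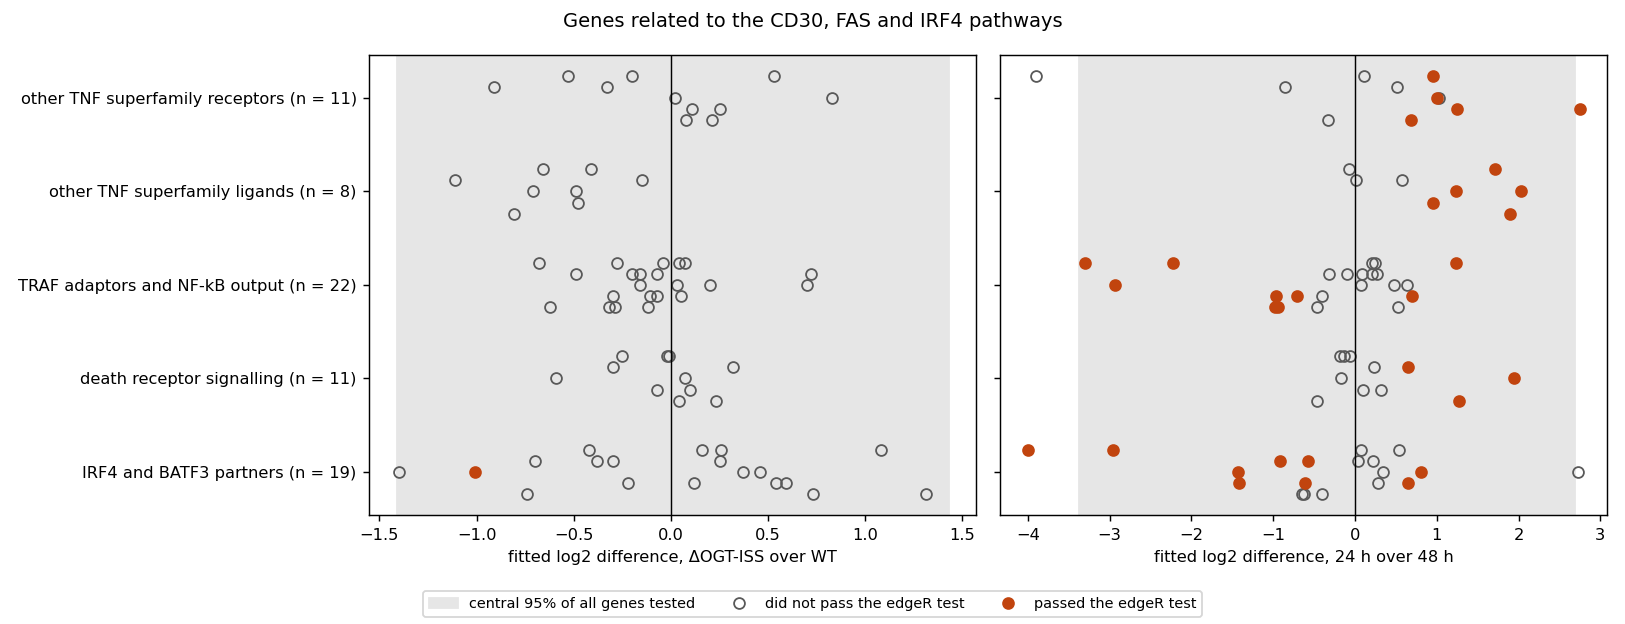
Fitted log2 difference of each tested gene in 5 lists, ΔOGT-ISS over WT (left) and 24 h over 48 h (right); each circle is 1 gene, filled where it passed the edgeR test, and the grey band holds the central 95% of all genes tested. One gene of the 71, IKZF1, passed between the lines, against 31 between the times.

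The genes whose pattern over the 4 libraries lay nearest to 3 of the genes were named by Euclidean distance of mean-centred log2 CPM among 9082 or 9083 expressed protein-coding genes. The line difference that chose these 3 genes enters the distances, so the names are a description. Nearest to TNFRSF8 were CAVIN4 (distance 0.75), ALCAM (0.79), an adhesion molecule, and HHLA2 (0.94), a ligand of the B7 family. The level of ALCAM was 32.9 CPM for ΔOGT-ISS cells and 3.41 for WT cells at 24 h, and 19.2 and 6.15 CPM in those lines at 48 h. Nearest to TNFSF8 were IL18R1 (0.63) and IL18RAP (0.77), both subunits of the interleukin 18 receptor, with ZNF423 (0.73) between them. IL18R1 and IL18RAP both lie on chromosome 2. The TNFSF8 pattern rests on 9 and 21 reads in ΔOGT-ISS at 24 h and 48 h. The level of IL18RAP was 0.828 CPM for ΔOGT-ISS cells and 16.6 for WT cells at 24 h, and 5.35 and 23.5 CPM in those lines at 48 h. Nearest to IRF4 were IFFO2 (0.27), GRAMD4 (0.29) and GNAO1 (0.30).

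Genes next to the 10 on their chromosomes had line ratios near 1 in the median. The median log2 line ratio of the nearest expressed genes (up to 10 on each side) was -0.14 at 24 h and -0.01 at 48 h around TNFRSF8, 0.00 and -0.18 around TNFSF8, and 0.11 and 0.12 around IRF4. Around the other 7 it lay between -0.21 and 0.25. Of the genes that overlap them, DEC1, on the strand opposite to TNFSF8, had 0 reads in ΔOGT-ISS and 17 in WT at 24 h, and 11 and 62 in those lines at 48 h. The antisense gene AL357835.1 within TNFRSF8 had 11 and 4 reads in ΔOGT-ISS at 24 h and 48 h and 0 in both WT libraries. ACTA2, opposite to FAS, had 132 reads in ΔOGT-ISS and 100 in WT at 24 h, and 27 and 25 in those lines at 48 h. The strand setting of the counting is not given in the sources used here, so reads of such overlapping genes cannot be told apart.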

How the data were processed

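Per the labels' protocols, rRNA was removed by RiboCop and CORALL RNA-seq V2 libraries were prepared. The submitters' processing notes list hg38, HISAT2 2.2.0, SAMtools 1.15.1 and featureCounts 2.0.1. Neither the annotation nor the strand setting nor the use of molecular identifiers is stated in those sources. The authors deposited raw counts per Ensembl gene and FPKM values, which equal count per transcript length and library total to within 0.000551%, with the transcript length, another deposited column, in bases.

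Symbols came from the FPKM table (41013 identifiers) and a reference name table (1404), and positions from GENCODE release 29. The main test was edgeR 4.0.16 (R 4.3.3): TMM, filterByExpr with a minimum count of 10, quasi-likelihood F test, terms for line and IL-2 time, all 4 libraries, two-sided p adjusted by Benjamini-Hochberg over 17492 genes, threshold 0.05. It has 1 residual degree of freedom, and its p-values measure only how far these libraries differ, in part perhaps technically. SE is the log2 change over the square root of F. Line, time and their interaction cannot all be fitted, so ratios at each time carry exact conditional binomial 95% intervals.

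The genes, lists and motifs were chosen with earlier results of these data known. Named list genes were those past the test, up to 6 by smallest p, or else the 2 largest changes with at least 5 mean CPM; some values are not reported here. Alternatives were DESeq2 1.42.0, its size factors, upper-quartile factors, no filter, limma 3.58.1 on FPKM with a pseudocount of 1 or 0.1, 1 term left out, each library left out, thinned 24 h libraries, and offsets for GC content and length (16884 genes).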

Additional observations from a re-analysis of the deposited data

Results flagged for a closer look

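The line ratio (ΔOGT-ISS over WT) had counting intervals on opposite sides of 1 at the 2 times for 3 of the 10 genes. TNFRSF9 stood at 0.0854 at 24 h and 4.99 at 48 h, FAS at 0.634 at 24 h and 1.20 at 48 h, and FASLG at 0.793 at 24 h and 1.55 at 48 h. For TNFRSF9 the ratio of 24 h over 48 h also ran in opposite directions, at 0.101 in ΔOGT-ISS and 5.91 in WT. Each value compares 1 library with 1 library, so these differences between times or lines were not tested, and 9.51% of all genes tested showed the line pattern.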

How the results depend on the processing

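Of the time calls on the genes described, FAS passed under all 13 alternatives (log2 -2.50 to -1.83) and FASLG under 12 (0.91 to 1.45). IRF4 passed under 8 and kept its sign (0.15 to 1.49), and TNFSF8 passed under 6 (-4.46 to 0.41). The line values of TNFRSF8 (2.32 to 2.99), TNFSF8 (-4.76 to -1.25) and IRF4 (0.65 to 1.65) kept their sign under all 13. This contrast chose those genes and every fit draws on the same 4 libraries, so the kept sign is a description and not a test. TNFSF10 passed only without the WT 48 h library (-1.45) and BATF3 only with limma at a pseudocount of 1 (-0.98). Fits without 1 library lack the other term and mix line with time.

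The count of genes called between the lines was 81, and became 154 with DESeq2 size factors, 303 with DESeq2, 546 with no filter, 480 with GC and length offsets, 44 with thinning, 0 with limma on FPKM at either pseudocount (1618 and 1543 at an unadjusted p under 0.05) and 0 without the time term (242 unadjusted). Without 1 library it was 0 to 16. Between the times it was 4535 (3095 with offsets), and 1098 to 3657 without 1 library. Of the 9 genes, 4 were called between the times, 2 without the line term, and 1 to 3 without 1 library. Of the 71 list genes, 1 was called between the lines, against 2 with DESeq2, 5 with no filter, 2 with offsets, and 0 with limma at either pseudocount (9 unadjusted each), without the time term (1 unadjusted), with thinning (12 unadjusted) and without any 1 library (2 to 6 unadjusted). Between the times 31 were called, of which 25 are named; TNFRSF10A, TNFSF14, BIRC3, NFKBIA, TNFAIP3, FADD, JUN and ATF3 passed under all 13 alternatives and the other 17 did not. The 31 became 10 to 22 without 1 library. With offsets 25 were, 6 higher and 19 lower, against 17 and 14 before.

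Time values that changed sign without the line term were TNFRSF8 (0.02) and TNFRSF9 (0.09), with no filter TNFRSF8 (0.14), with thinning TNFRSF9 (0.01), and with offsets TNFRSF4 (-0.93), LTB (-0.07), BCL3 (-0.22) and JUND (-0.87). Without 1 library the range was -2.11 to 1.95 for TNFRSF8 (0.93 in another), -4.46 to 0.41 for TNFSF8 and -2.48 to 1.67 for TNFRSF9 (1.06 in another). Line values that changed sign without the time term were FAS (0.10), FASLG (-0.03) and TNFRSF10A (-0.07). Without 1 library the line values that did so, with their ranges, were FAS (-1.80 to 1.16), FASLG (-0.66 to 1.02), TNFRSF9 (-2.78 to 1.42), TNFSF10 (-0.25 to 1.33), BATF3 (-2.53 to 0.07), TNFRSF10A (-1.61 to 2.57), TNF (-2.10 to 0.48), TNFSF14 (-2.15 to 0.67) and MAP3K14 (-0.07 to 1.57). The cause was not tested. The term for time sets the lines beside each other within each time, and the labels carry no replicate numbers for any other pairing. BATF3, TNFRSF4 and TNFRSF18 are limited by few reads at 24 h as well as at 48 h, and in each line BATF3 had fewer at 24 h.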
